A study of Mus musculus with 64 samples.

Results

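Transcripts of the unfolded protein response and of the heat shock response were followed as 35 mouse genes chosen by name, out of 55809 genes in the count tables. Of these, 25 belong to the endoplasmic reticulum (ER) and its stress pathways and 10 to the cytosolic and mitochondrial heat shock system. A gene entered a comparison when its mean count over the libraries fitted was at least 10. In the 44 libraries of the reversible Foxp3 allele and of Foxp3GFP cells, 34 of the 35 genes passed. Chac1, which encodes a glutathione-degrading enzyme induced by ATF4, passed nowhere and was listed at 0 in 27 of those 44 libraries.

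The unfolded protein response adjusts the folding capacity of the ER to the load of secretory and membrane proteins. It is sensed by the membrane proteins IRE1 (Ern1), PERK (Eif2ak3) and ATF6 (Atf6), which act through spliced Xbp1, through Atf4, and through a cleaved part of ATF6 itself. The heat shock response is run by the factor HSF1, which drives cytosolic chaperones such as Hspa1a, Hspa1b and Dnajb1 when proteins unfold in the cytosol. Lymphocytes that secrete much protein expand their ER, and heat shock genes respond within minutes to handling and warming of cells.

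The windows below are shown because the ER genes of the report share an element that is rare among promoters. RefSeq promoter windows (250 bases before to 50 bases after each start, build GRCm38.p6) were found for 28 of the 35 genes, 22 of the ER group and 6 of the heat shock group. The ER stress element, CCAAT and CCACG with 9 bases between them on either strand, occurred in 8 of the 22 ER genes, in none of the 6 heat shock genes and in 0.119% of all 32851 windows. Capitals mark its fixed bases, and its centre lay 35 to 203 bases before the start.
Hspa5: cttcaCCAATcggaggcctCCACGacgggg
Hsp90b1: actcaCCAATcgtgcctcaCCACGcactct
Calr: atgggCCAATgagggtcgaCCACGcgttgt
Pdia6: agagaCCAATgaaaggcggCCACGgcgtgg
Canx: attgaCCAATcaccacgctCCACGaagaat
Syvn1: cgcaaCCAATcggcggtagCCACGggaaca
Creld2: gtggaCCAATtgaggctcgCCACGagaagc
Dnajc3: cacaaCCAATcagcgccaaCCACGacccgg

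These stretches lie at chr2:34772020-34772049 on the plus strand for Hspa5, chr10:86705528-86705557 on the plus strand for Hsp90b1 and chr8:84847070-84847099 on the plus strand for Calr. The stretch of Pdia6 lies at chr12:17266486-17266515 (plus strand), that of Canx at chr11:50325794-50325823 (minus strand) and that of Syvn1 at chr19:6046527-6046556 (plus strand). Those of Creld2 and Dnajc3 lie at chr15:88819514-88819543 (minus strand) and chr14:118937822-118937851 (plus strand). Hsp90b1 held a further copy on the minus strand at chr10:86705632-86705661. The related element of ATTGG and CCACG with 1 base between them was found in Herpud1 alone of the 28 genes and in 0.0365% of all windows. TGATGCAA, the ATF4 element, was found in Herpud1 and Chac1 and in 0.895% of all windows. TGACGTGG, a site for XBP1 and ATF6, was in none of the 28 and in 0.676% of all windows. The heat shock element, searched as GAA, TTC and GAA with 2 bases between each, was found in Hsph1 and in the shared promoter of the neighbours Hspd1 and Hspe1, and in 0.603% of all windows. The matches below are on the plus strand at chr8:94386368-94386397, chr5:149636280-149636309 and chr1:55088056-55088085, with the fixed bases in capitals. All motifs were searched on both strands, and a match describes letters only.
Herpud1: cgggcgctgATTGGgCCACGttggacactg
Hsph1: actgaggaGAActTTCcaGAAtctgcagca
Hspd1 and Hspe1: ccgttctaGAAccTTCcgGAAggccccgcg

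The 64 libraries came from sorted mouse regulatory T (Treg) cells or from Treg wannabe cells, which transcribe a Foxp3 locus that makes no Foxp3 protein. In the reversible experiment, female Foxp3LSL/WT heterozygotes carried a loxP-flanked Thy1.1-STOP cassette before a Foxp3GFP reporter on 1 Foxp3 allele, so Foxp3-sufficient Treg cells from the other allele were present in every host. The plusFoxp3 libraries came from Cd4creERT2 mice, in which 4-hydroxytamoxifen (4-OHT) activates Cre in cells that use the Cd4 promoter, and the minusFoxp3 libraries from Cd4-WT littermates. Both were sampled untreated (day 0) and 3, 7, 14 and 28 days after 1 dose of 4-OHT, as resting and as active cells, with 2 libraries per group. Untreated Foxp3GFP Treg cells gave 2 resting and 2 active libraries. In the degron experiment, all mice received 5-ph-IAA for 7 days and carried Foxp3-AID, an allele with a degradable tag that also encodes ZsGreen and Cre. The TIR1 groups had TIR1(F74G), the plant receptor that marks tagged Foxp3 for destruction, expressed from ROSA26 after Cre removed a stop cassette, and the WT groups had an unmodified ROSA26. Adult female heterozygotes gave 3 TIR1 and 3 WT libraries each of CD73-negative thymic and of active peripheral Treg cells. Infant mice gave 4 and 4 libraries of Treg cells from spleen and lymph nodes. For its neonatal experiments the paper used hemizygous Foxp3-AID males, treated from day 1 after birth. It reported severe autoimmune disease in neonates after Foxp3 degradation. Unlike the adult heterozygotes, such males have no Treg cells with an untagged Foxp3 allele. The part of inflammation in the infant comparison was not tested.

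Library totals ran from 27753211 to 57419138 counts, and levels are given as CPM, counts scaled to the total of the library. Foxp3, as a check of the labels, was at 44.3 to 65.3 CPM in active and 47.3 to 81.5 in resting minusFoxp3 libraries, at 50.7 to 80.7 in the 4 untreated plusFoxp3 libraries, and at 426 to 615 in the 16 plusFoxp3 libraries of days 3 to 28. It was at 635 to 817 CPM in Foxp3GFP cells, so the day 0 plusFoxp3 libraries have no restored Foxp3. The labels go against each other in the degron experiment: each of the 12 adult tables names inside it a library of the other genotype than the sample it is deposited under, and the 8 infant samples have titles opposite to their genotype fields. The adult libraries are grouped here by the name inside the table and the infants by title, and every direction between degron genotypes rests on that choice. Degron and reversible-allele libraries were counted with different settings, and Hspa8, the constitutive HSP70, was at 106 to 150 CPM in adult degron, 801 to 1487 CPM in infant and 337 to 1647 CPM in reversible-allele and Foxp3GFP libraries, so levels are not compared between experiments. The study describes replicates of the adult degron and of the plusFoxp3 and minusFoxp3 groups as biologically independent. The labels tie no library to a mouse, and p-values here measure only the spread between libraries. In these bulk samples, fewer cells of a type and less RNA per cell cannot be told apart.

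Active and resting minusFoxp3 cells differed in the ER genes. Averaged over the 5 days, 16 of the 24 ER genes tested were higher in active cells and 3 were lower, while 1 of 10 heat shock genes, Hspe1, was lower and none was higher (edgeR quasi-likelihood test, adjusted p under 0.05). Over all 20790 genes tested, 37.9% were called, 19.6% of all as higher and 18.3% as lower. The median log2 fold change was 0.44 for the ER genes, -0.28 for the heat shock genes and -0.03 for all genes. Leaving out each of the 20 libraries in turn kept the ER median between 0.39 and 0.48, while the heat shock median ran from -0.35 to -0.06, the latter without resting day 28 replicate 2, where 5 of 10 fold changes were positive. It came to -0.18 or closer to 0 also without replicate 2 of resting day 0, 3, 7 or 14, or replicate 1 of active day 7, 14 or 28. Of the 8 genes with the ER stress element shown above, 7 were called higher and Dnajc3 was called lower.

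Among the 6 sensors and transcription factors, 3 were higher, 1 was lower and 2 missed the threshold. Atf6 (chromosome 1, minus strand), the membrane-bound factor that is cut loose under ER stress, was at 8.26, 10.6 and 12.8 CPM (lowest, median and highest of 10) in resting and at 40.2, 52.9 and 60.8 CPM in active libraries. The 2 sets of 10 did not overlap, and the log2 fold change was 2.35 ± 0.13 (SE, edgeR adjusted p = 4.34e-14). Xbp1, whose spliced messenger encodes the main factor of the IRE1 arm, was at 165, 193 and 219 CPM in resting and 257, 327 and 374 CPM in active libraries, a log2 fold change of 0.72 ± 0.06 (edgeR adjusted p = 3.09e-10). These sets did not overlap either, and gene counts do not separate the spliced from the unspliced form. Ern1, the IRE1 sensor, was low, at 2.21 to 5.05 CPM in resting and 3.81 to 7.47 CPM in active libraries, and was also higher in active cells (log2 0.85 ± 0.17). Ddit3, encoding the pro-apoptotic factor CHOP, went the other way, from a median of 37.5 CPM in resting to 26.9 CPM in active libraries, with overlapping sets (log2 -0.40 ± 0.10, edgeR adjusted p = 0.00122). Eif2ak3 and Atf4 missed the threshold, with log2 fold changes of 0.29 ± 0.12 and -0.30 ± 0.13.

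Among the 13 ER chaperones and foldases, 10 were higher in active minusFoxp3 cells and Dnajc3 was lower. Sdf2l1, which assists the chaperone BiP, was at 33.6, 40.1 and 48.6 CPM in resting and 63.8, 80.0 and 116 CPM in active libraries, without overlap (log2 1.08 ± 0.13, edgeR adjusted p = 5.27e-08). The disulfide isomerases Pdia4 and Pdia6 also did not overlap, at log2 0.83 ± 0.08 and 0.82 ± 0.07. Hsp90b1, the HSP90 of the ER, had medians of 302 CPM in resting and 568 CPM in active libraries, and 15.67% of its exon bases are shared with overlapping genes (log2 0.87 ± 0.12). Calr and Manf followed at 0.63 ± 0.08 and 0.55 ± 0.10, then Creld2 at 0.47 ± 0.09 and Pdia3 at 0.44 ± 0.09. Hspa5, which encodes BiP, the HSP70 of the ER, was at 679, 883 and 1130 CPM in resting and 793, 1229 and 1579 CPM in active libraries. Its sets overlapped, with a log2 fold change of 0.42 ± 0.13 (edgeR adjusted p = 0.0109), and Canx, the membrane-bound lectin chaperone, was at 0.34 ± 0.10. Dnajc3, a cochaperone that also restrains PERK, was lower by a small step (log2 -0.23 ± 0.06), and Dnajb9 and Hyou1 did not pass (-0.71 ± 0.32 and 0.26 ± 0.13).

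In ER-associated degradation, which pulls misfolded proteins out of the ER, the ligase Syvn1 and its partner Sel1l were higher in active cells (log2 0.30 ± 0.12 and 0.44 ± 0.09), and Herpud1 was at -0.12 ± 0.07. The targets of the PERK and ATF4 arm split. Asns, the asparagine synthetase, was at 0.751, 1.42 and 1.69 CPM in resting and 4.61, 7.23 and 10 CPM in active libraries, without overlap (log2 2.48 ± 0.31, edgeR adjusted p = 1.84e-07). Trib3, a pseudokinase that ATF4 and CHOP induce, had medians of 8.20 CPM in resting and 4.42 CPM in active libraries and was lower (log2 -0.83 ± 0.15, edgeR adjusted p = 6.45e-05). Together 6 ER genes, Atf6, Xbp1, Asns, Sdf2l1, Pdia4 and Pdia6, had every active library above every resting one, against 6.2% of all genes, and no ER gene had every active library below (4.45% of all genes). In wider lists of the same pathways, 13 of 30 further ER stress genes were higher and 3 lower, 4 of 20 further ATF4 response genes were higher and 1 lower, and 7 of 32 further heat shock genes were higher and 5 lower.

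**Figure D1:**
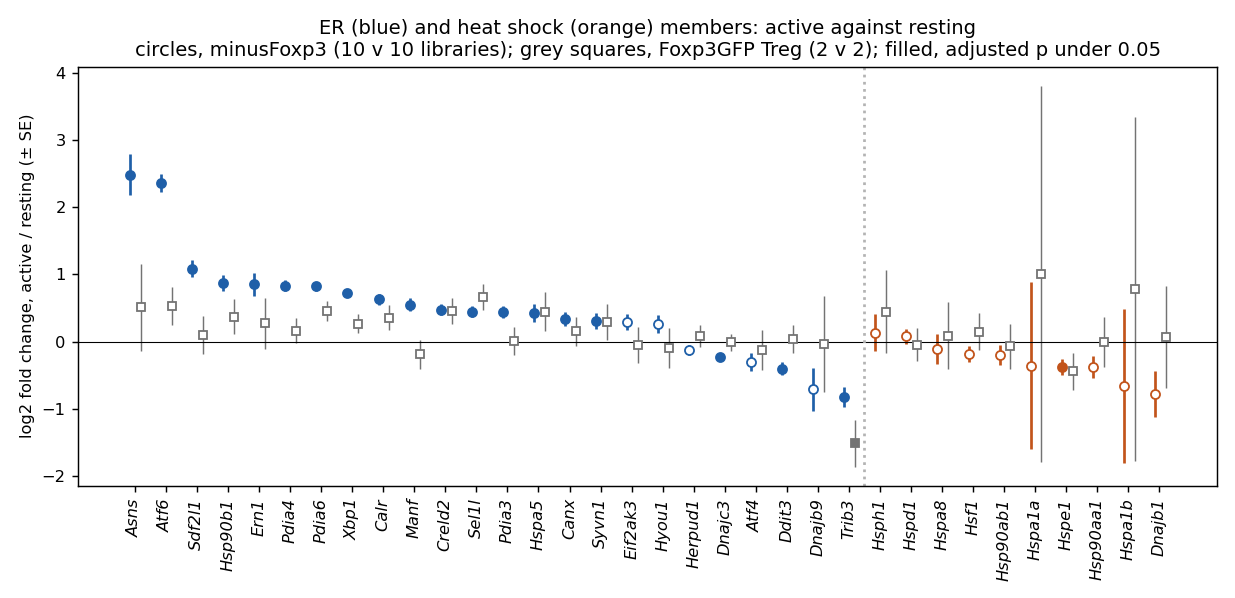
Log2 fold change (y axis, ± SE) of each tested ER gene (blue) and heat shock gene (orange) between active and resting cells, in minusFoxp3 cells (circles, 10 against 10 libraries) and Foxp3GFP Treg cells (grey squares, 2 against 2). Filled symbols have an edgeR adjusted p under 0.05; Asns and Atf6 stand highest in minusFoxp3 cells at 2.48 and 2.35, and Hspa1a and Hspa1b have the widest bars.

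Of the heat shock genes only Hspe1 was called between the states, in a test that took resting and active libraries as unpaired. Cytosolic heat shock genes were high or low together in libraries that share a label, as described below, so their spread here is partly common to both states. Hspa1b was lower in the active library of every such minusFoxp3 pair except day 3 replicate 1 (9.08 CPM in resting and 12.9 CPM in active). A difference within such pairs was not tested. Hspe1, the small subunit of the mitochondrial chaperonin, was at 69.2, 103 and 141 CPM in resting and 61.1, 75.6 and 115 CPM in active minusFoxp3 libraries (log2 -0.37 ± 0.12, edgeR adjusted p = 0.0154). Its partner Hspd1, with which it shares 112 exon bases, was at log2 0.08 ± 0.11. Dnajb1 and Hsp90aa1, the inducible HSP40 and HSP90 of the cytosol, were at -0.78 ± 0.34 and -0.38 ± 0.17 and missed the threshold (edgeR adjusted p = 0.0751 and 0.0753). Hsp90ab1, the constitutive HSP90, had the highest median per kilobase of exon of the 35 genes in resting minusFoxp3 libraries, at 504 CPM per kilobase, ahead of Pdia3 at 264 and Hspa5 at 209. No heat shock gene separated all active from all resting libraries.

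Other gene lists moved with the state. Of 20 proliferation genes, 19 were higher in active minusFoxp3 cells, and their summed level was 618 to 1325 CPM against 478 to 639 CPM in resting libraries. The myeloid list (13 genes) summed to 187 to 423 CPM in active and 101 to 155 CPM in resting libraries, and the list of B and plasma cell genes to 314 to 486 CPM in active and 522 to 972 CPM in resting libraries. Cd8a was at most 2.53 CPM in the minusFoxp3 libraries, and the part of these lists in the ER result was not tested.

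In Foxp3GFP Treg cells the same contrast called 1 member, against 3.12% of all genes. Trib3 was at 8.15 and 8.66 CPM in resting and 2.07 and 3.91 CPM in active libraries, without overlap (log2 -1.51 ± 0.35, edgeR adjusted p = 0.012). That call was lost without active replicate 1 or without either resting replicate. Of the 24 ER genes, 17 had positive fold changes, with a median of 0.16, and the heat shock median was 0.08. With 1 library left out the ER median was 0.09 to 0.27, lowest without resting replicate 2 and highest without resting replicate 1 or active replicate 2, and the heat shock median was of either sign, from -0.50 without active replicate 1 to 0.45 without resting replicate 1. Hspa5 was at 920 and 920 CPM in resting and 1232 and 1300 CPM in active Foxp3GFP libraries.

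Atf6 was the member whose state difference was called as unequal between Foxp3GFP and untreated minusFoxp3 cells. In Foxp3GFP libraries it was at 17.4 and 17.7 CPM in resting and 24.5 and 26.7 CPM in active cells, so that both resting levels lay above all 10 resting and both active levels below all 10 active minusFoxp3 libraries. On day 0, minusFoxp3 cells were at 8.26 and 8.57 CPM in resting and 48.8 and 60.8 CPM in active libraries. The difference between the state effects was -2.17 ± 0.41 in log2 units (edgeR interaction test, adjusted p = 0.00235), 1 call among 34 members against 2.43% of all genes, and it held when each of the 8 libraries was left out in turn. Of the other ER genes, Pdia4 was at -0.74 ± 0.27, Xbp1 at -0.51 ± 0.20 and Sdf2l1 at -1.0 ± 0.39 in this test and did not pass (edgeR adjusted p = 0.177, 0.233 and 0.237). In plusFoxp3 cells, Atf6 ran from 5.77 to 19.1 CPM in resting and from 31.9 to 63.1 CPM in active libraries. On day 28 the resting plusFoxp3 libraries were at 13.9 and 19.1 CPM against 10.4 and 12.8 CPM in minusFoxp3, and the active ones at 31.9 and 44.9 CPM against 50.9 and 56.0 CPM. These day 28 sets did not overlap in either state, as sets of 2 libraries often do not, and the share of all genes without overlap was not counted. The interaction was -0.98 ± 0.40 (edgeR adjusted p = 0.743), and no member was called in it (0.0818% of all genes were).

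**Figure D2:**
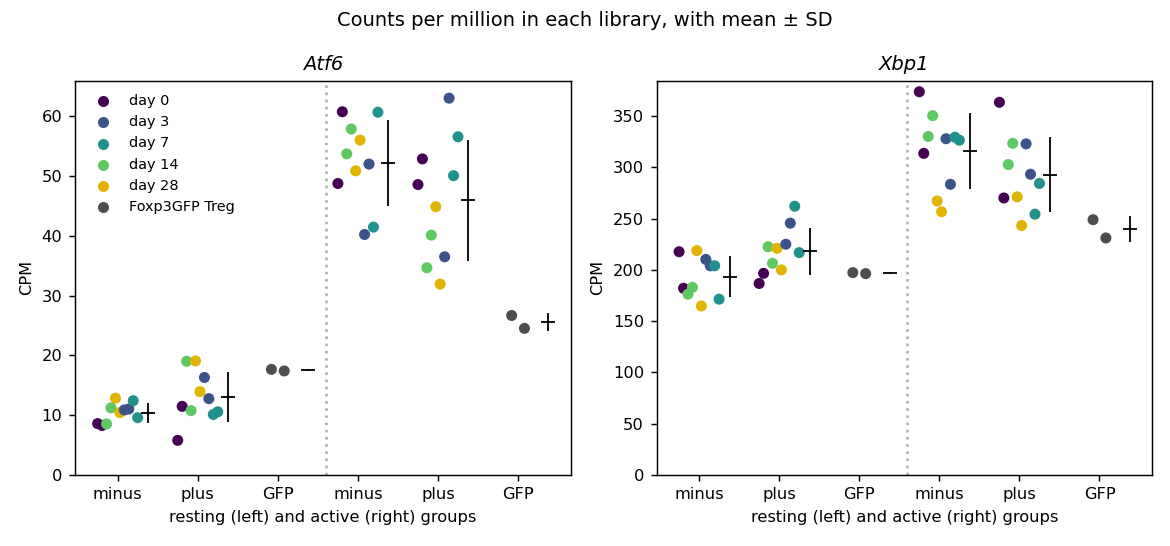
CPM (y axis) of Atf6 and Xbp1 in each library, coloured by day, for resting groups on the left and active groups on the right of each panel, with mean ± SD beside them. Active minusFoxp3 libraries hold Atf6 at 40.2 to 60.8 CPM, and the 2 active Foxp3GFP libraries lie at 24.5 and 26.7 CPM.

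Foxp3GFP and untreated minusFoxp3 cells were also compared within each state. In active cells 2 of 34 members were called, both lower in Foxp3GFP, against 10% of all genes called, 5.21% as higher and 4.79% as lower. Atf6 was lower by a log2 fold change of -1.07 ± 0.25 (edgeR adjusted p = 0.0109). Xbp1 was at 231 and 249 CPM in active Foxp3GFP libraries and 314 and 374 CPM in active day 0 minusFoxp3 libraries (log2 -0.49 ± 0.15, edgeR adjusted p = 0.0417). Between 0 and 3 members were called when 1 of these libraries was left out: neither Atf6 nor Xbp1 was called without Foxp3GFP replicate 2, Atf6 was not without minusFoxp3 replicate 2, and Xbp1 was not without replicate 1 of either. The lists of other genes moved in this contrast too: of the proliferation genes, 0 of 20 had positive fold changes and 7 were called lower (median -1.08), 3 of 13 B and plasma cell genes were called higher and 1 lower, and 2 of 12 myeloid genes were called lower. The B and plasma cell list summed to 3897 and 4024 CPM in active Foxp3GFP libraries against 314 to 486 CPM in the 10 active minusFoxp3 libraries, and the part of these lists in the values of Atf6 and Xbp1 was not tested. All 10 heat shock genes had positive fold changes, with a median of 0.47 against 0.00 for all genes, but without Foxp3GFP replicate 1 the median was -0.05 with 4 of 10 positive, without Foxp3GFP replicate 2 it was 0.83 and without minusFoxp3 replicate 1 it was 0.30. None was called (lowest adjusted p in edgeR = 0.382, and 0 heat shock genes at an unadjusted p under 0.05). In resting cells no member was called against 2.91% of all genes. There Atf6 had the lowest p of the ER genes (log2 1.07 ± 0.32, edgeR adjusted p = 0.0995) and Hsph1, a cochaperone of HSP70, the lowest of the heat shock genes (log2 0.80 ± 0.57, edgeR adjusted p = 0.676). At an unadjusted p under 0.05, 4 members passed in resting cells, as did 12.5% of all genes. DESeq2 called 1 of these members, Atf6, against 5.05% of all genes. The 2 states share no library here.

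Between plusFoxp3 and minusFoxp3 cells, none of the 34 tested members was called on any day in either state. In resting cells, edgeR called 0.00487%, 0.0487%, 0.0585%, 0.268% and 0.945% of all genes on days 0, 3, 7, 14 and 28, and in active cells 0.00481%, 0.274%, 0.568%, 0.732% and 1.85%. Over the 10 comparisons, 21 of 340 tests of members had an unadjusted p under 0.05, as did 4.58% to 13.0% of all genes per comparison. DESeq2 called 1, Trib3 in resting cells on day 14, where it called 1.43% of all genes. On that day Trib3 was at 11.1 and 12.5 CPM in plusFoxp3 and 5.65 and 6.20 CPM in minusFoxp3 resting libraries, without overlap (log2 1.03 ± 0.27, edgeR adjusted p = 0.174).

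The ER genes of lowest p changed from day to day. In resting cells they were Syvn1 on day 0 (log2 0.72 ± 0.28, edgeR adjusted p = 0.428), Pdia4 on day 3 (0.60 ± 0.19, 0.327), Xbp1 on day 7 (0.34 ± 0.15, 0.794) and Eif2ak3 on day 28 (-0.62 ± 0.28, 0.515). On day 3, 21 of 24 ER genes and 9 of 10 heat shock genes had positive fold changes in resting cells, and 6 members had an unadjusted p under 0.05, all with positive fold changes: Asns, Calr, Canx, Ern1, Hspd1 and Pdia4. In that comparison 11% of all genes did so, and 20 of 20 proliferation genes had positive fold changes with a median of 1.82 and none called, whose part was not tested. In active cells the lowest p belonged to Syvn1 on day 0 (log2 0.54 ± 0.24, edgeR adjusted p = 0.999), Trib3 on day 3 (0.87 ± 0.39, 0.649), Manf on day 7 (-0.61 ± 0.22, 0.273) and Ern1 on days 14 and 28 (0.90 ± 0.37, 0.396, and 0.87 ± 0.36, 0.36). None of these passed, and the ER medians were between -0.13 and 0.21 in the 10 comparisons with all libraries, and between -0.25 (active day 14 without minusFoxp3 replicate 1) and 0.32 (active day 3 without minusFoxp3 replicate 2) with 1 library left out.

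The heat shock genes often shared a sign on a given day without a call. In resting cells 5, 9, 1, 0 and 5 of 10 had positive fold changes on days 0, 3, 7, 14 and 28, and in active cells 9, 9, 4, 0 and 5. The medians on day 14 were -0.28 in resting and -0.54 in active cells, and on day 3 they were 0.43 and 0.21. Single libraries decided these medians. In resting cells the day 14 median was -0.01, with 5 of 10 positive, without minusFoxp3 replicate 2 and -0.13 without plusFoxp3 replicate 1, against -0.60 without minusFoxp3 replicate 1 and -0.45 without plusFoxp3 replicate 2. In active cells it was -0.20 without minusFoxp3 replicate 2, -0.23 without plusFoxp3 replicate 1 and -0.84 without plusFoxp3 replicate 2. The resting day 3 median was 0.09 without plusFoxp3 replicate 1, 0.23 without minusFoxp3 replicate 1 and 0.68 without plusFoxp3 replicate 2. The active one was 0.08 without plusFoxp3 replicate 1, 0.12 without minusFoxp3 replicate 1 and 0.47 without minusFoxp3 replicate 2. On days 0, 7 and 28 leaving out 1 library gave medians of either sign in both states. Hspa1b on day 14 was at 608 and 2645 CPM in minusFoxp3 and 47.5 and 576 CPM in plusFoxp3 resting libraries, and at 299 and 1501 CPM against 37.7 and 284 CPM in active libraries. The groups did not overlap in either state, yet the log2 fold changes of -2.36 ± 2.72 and -2.49 ± 2.55 had standard errors larger than themselves (edgeR adjusted p = 0.865 and 0.822). By comparison Xbp1 had a standard error of 0.15 in the same comparisons. The heat shock genes of lowest p in resting cells were Hsf1 on day 0 (log2 0.51 ± 0.25, edgeR adjusted p = 0.477), Hspd1 on days 3 and 7 (0.51 ± 0.22, 0.43, and 0.25 ± 0.22, 1), Hsp90aa1 on day 14 (-0.57 ± 0.34, 0.681) and Hspe1 on day 28 (0.34 ± 0.25, 0.797). In active cells they were Hsp90ab1 on day 0 (0.35 ± 0.29, edgeR adjusted p = 0.999), Hsp90aa1 on days 3 and 28 (0.39 ± 0.35, 0.894, and 0.23 ± 0.35, 0.921), Hspe1 on day 7 (-0.61 ± 0.27, 0.357) and Hspd1 on day 14 (-0.61 ± 0.24, 0.378).

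**Figure D3:**
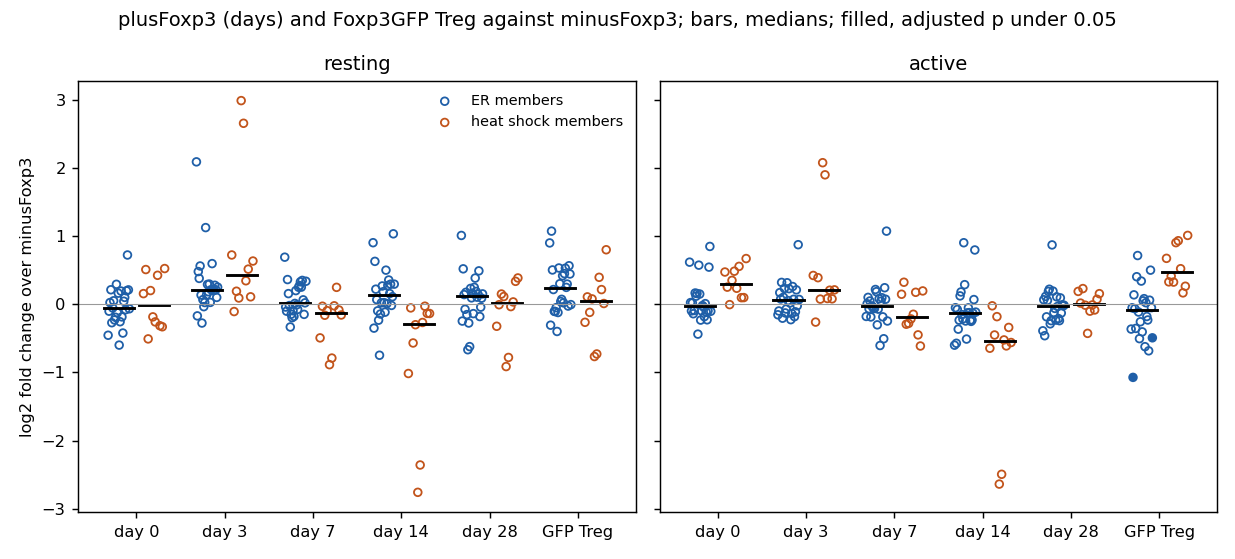
Log2 fold change (y axis) over minusFoxp3 of plusFoxp3 cells by day and of Foxp3GFP Treg cells, for resting (left) and active (right) cells. Each circle is 1 gene (blue ER, orange heat shock), black bars are medians and filled circles have an edgeR adjusted p under 0.05, which holds for Atf6 and Xbp1 in active Foxp3GFP cells alone; on day 14 all 10 heat shock genes lie below 0 in both panels.

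Neither 4-OHT in minusFoxp3 cells nor the comparison of Foxp3GFP with day 28 plusFoxp3 cells called a member. Treated against untreated minusFoxp3 cells called 0 members and 0.0% of all genes in each state, with 0 members at an unadjusted p under 0.05 by edgeR and 0 called by DESeq2. The genes of lowest p were Trib3 (log2 0.41 ± 0.22) and Hspe1 (-0.24 ± 0.19) in resting cells, and Creld2 (-0.31 ± 0.16) and Hsph1 (-0.45 ± 0.44) in active cells, each with an edgeR adjusted p = 1. Foxp3GFP against day 28 plusFoxp3 cells called none in resting cells (0.0341% of all genes, 0 members at an unadjusted p under 0.05) and none in active cells (2.01% of all genes). In resting cells the lowest p belonged to Syvn1 (log2 0.49 ± 0.28) and Hsph1 (1.06 ± 0.57), both with an edgeR adjusted p = 1. In active cells 5 members had an unadjusted p under 0.05, as did 11.2% of all genes. They were led by Ern1 (log2 -1.11 ± 0.36, edgeR adjusted p = 0.173) and Hsph1 (1.53 ± 0.59, 0.281), and DESeq2 called no member in either state. These comparisons and the preceding ones share the minusFoxp3 day 0, plusFoxp3 day 28 or Foxp3GFP libraries.

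Libraries of the same group differed widely in several cytosolic heat shock genes. Hspa1a and Hspa1b, neighbouring near-identical genes on chromosome 17 that encode the stress-inducible HSP70, ran from 0.251 to 1053 CPM and from 3.05 to 2719 CPM over the 44 libraries. On day 28, Hspa1b was at 4.01 and 2128 CPM in the resting minusFoxp3 replicates 1 and 2, and at 3.05 and 1664 CPM in the active ones. On day 0 it was at 9.60 and 1438 CPM in resting and at 6.47 and 807 CPM in active minusFoxp3 replicates. The replicates of 1 group thus differed by up to 425-fold for Hspa1b and 639-fold for Hspa1a, on a scale of log2(CPM + 1).

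The standard deviation within groups was 3.39 log2 units for Hspa1a and 3.15 for Hspa1b, above 99.98% or more of the 12399 genes with a mean count of at least 100, whose median was 0.25. Dnajb1 followed at 0.85, Hsph1 at 0.67, Hspa8 at 0.55 and Hsp90aa1 at 0.40. The ER genes lay near the rest, with a median of 0.24 and Xbp1 at 0.14. Dnajb9, an ER cochaperone of BiP, was at 0.77, wider than 99.4% of those genes, and Asns at 0.48, wider than 95.0%. The mitochondrial genes Hspd1 and Hspe1 were at 0.25 and 0.28. Reads that match both near-identical HSP70 genes make the split between them uncertain, and 19.01% of the exon bases of Hspa1a overlap another gene model.

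Resting and active libraries that carry the same genotype, day and replicate number were high or low together. For Hspa1b the replicate with the higher level in resting cells was also the higher one in active cells in 11 of 11 groups. The same held for Hspa1a, Dnajb1 and Hsp90aa1 among heat shock genes and for Dnajb9 and Syvn1 among ER genes, against 0.726% of all genes. Hsph1, Hsp90ab1, Hspa8 and Hspe1 were on the same side in 10 of 11 groups, as were Atf4 and Sdf2l1. Across the 11 groups, the replicate difference in resting and in active cells had a Pearson r of 0.97 for Hspa1a and Hspa1b and 0.98 for Dnajb1, and a median of 0.90 over the heat shock genes, 0.20 over the ER genes and 0.17 over all genes, given as a description of libraries that share a label. Replicate 2 was the higher one for Hspa1b in 16 of 22 groups. The labels do not say whether resting and active libraries with the same number came from the same mouse or day.

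The summed level of 16 immediate-early and dissociation response genes, 15 of them in the tables, was on the same side as Hspa1b in 18 of 22 groups and ran from 7691 to 24747 CPM over the 44 libraries. The wider ER stress list was on that side in 18 of 22 groups too, the ER chaperones in 17, the ER sensors and factors in 16, and the summed proliferation and Treg identity genes in 11 each. The part of these lists in the heat shock spread was not tested. Mitochondrial transcripts, a common sign of RNA quality, had 0 counts in all 44 libraries and could not be used.

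**Figure D4:**
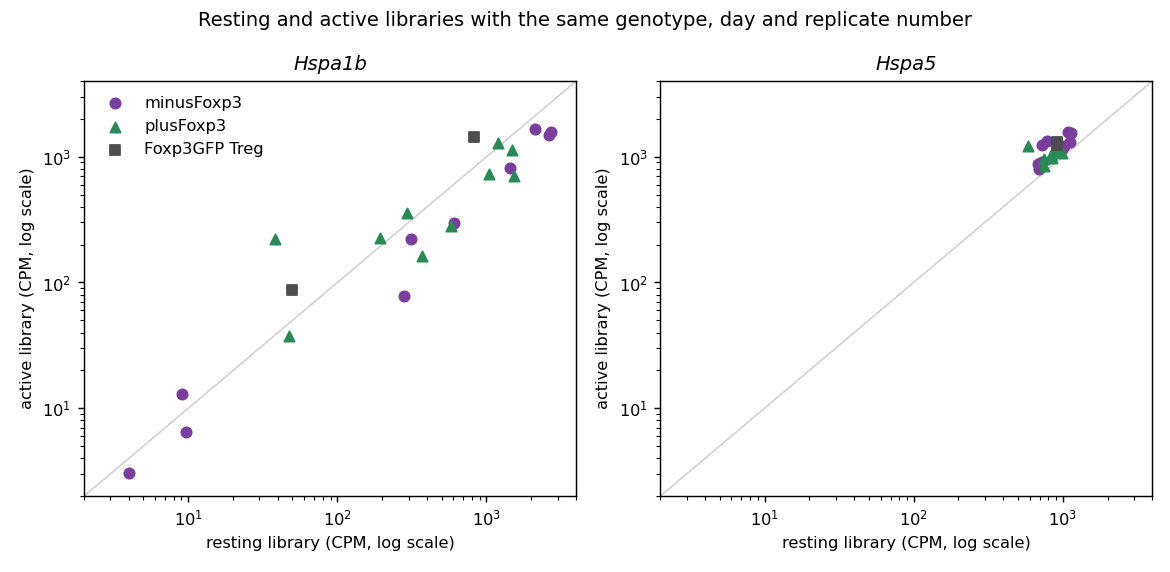
CPM in the active library (y axis, log scale) against CPM in the resting library (x axis, log scale) with the same genotype, day and replicate number, for Hspa1b (left) and Hspa5 (right), 22 pairs each. The grey line marks equal levels; Hspa1b spreads from 3.05 to 2719 CPM with both states high or low together, and Hspa5 stays between 590 and 1579 CPM.

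After degradation of Foxp3 in adult mice, edgeR called no member and no other gene. The paper, which tested with DESeq2, counted more changed genes in thymic than in resting or activated Treg cells. The lack of edgeR calls is therefore not evidence that the members were unchanged. In thymic Treg cells 0 of 33 tested members and 0.0% of 14245 genes were called (2 members and 7.37% of all genes at an unadjusted p under 0.05, 1 member and 1.1% of all genes by DESeq2). Hspa1b was at 1.53, 28.9 and 4.10 CPM in TIR1 and 0.461, 0 and 0.827 CPM in WT libraries, without overlap (log2 4.74 ± 1.44, edgeR adjusted p = 0.566), and this is the gene DESeq2 called. The replicate at 28.9 CPM stood apart, and the other TIR1 libraries were at 1.53 and 4.10 CPM. Of the ER genes Herpud1 had the lowest p there, at 165, 146 and 161 CPM in TIR1 and 175, 208 and 172 CPM in WT libraries (log2 -0.24 ± 0.11, edgeR adjusted p = 0.683). In active Treg cells 0 of 34 members and 0.0% of 14554 genes were called (3 members and 4.62% of all genes at an unadjusted p under 0.05, none by DESeq2). Trib3 was at 6.57, 5.08 and 5.31 CPM in TIR1 and 10.2, 9.08 and 12.3 CPM in WT active libraries, without overlap (log2 -0.93 ± 0.34), and Hsp90aa1 at 124, 173 and 177 CPM in TIR1 and 98.2, 112 and 127 CPM in WT (log2 0.45 ± 0.19), both with an edgeR adjusted p = 1. Foxp3 messenger was at 76.7 to 93.4 CPM in TIR1 and 100 to 127 CPM in WT active libraries, and at 144 to 168 and 144 to 181 CPM in thymic ones, which does not measure the protein that is degraded.

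In infant Treg cells 0 of 33 members were called by edgeR, against 0.0185% of 16209 genes, although 12 members had an unadjusted p under 0.05, as did 17.4% of all genes. Xbp1 was at 238, 221, 234 and 226 CPM in libraries titled TIR1 and 189, 184, 199 and 203 CPM in those titled WT, without overlap (log2 0.26 ± 0.06, edgeR adjusted p = 0.0941). Hspe1 was at 36.6, 38.1, 36.3 and 37.9 CPM against 52.1, 49.0, 62.7 and 42.1 CPM, also without overlap (log2 -0.45 ± 0.12, edgeR adjusted p = 0.102). Herpud1 was at 95.5, 95.3, 99.6 and 96.2 CPM against 127, 135, 134 and 97.0 CPM, where WT replicate 4 lay within the TIR1 range. DESeq2 called 5 of 33 members, Xbp1, Calr, Hspe1, Herpud1 and Atf4, against 6.83% of all genes, and edgeR called 6 of 33 without titled WT replicate 4 (11% of all genes tested), namely Xbp1, Calr, Hspe1, Herpud1, Dnajb1 and Hsph1. Of the 9 heat shock genes tested, 8 had negative fold changes with a median of -0.21 (-0.11 without titled WT replicate 3), and 15 of 24 ER genes positive ones with a median of 0.10. All 20 proliferation genes had positive fold changes (summed level 1998 to 3040 CPM in libraries titled TIR1 and 817 to 1980 CPM in those titled WT), and their part in these values was not tested. If the genotype fields are right and the titles wrong, every infant direction turns.

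Thymic and active peripheral WT Treg cells differed in ER genes in the degron experiment. Of 24 ER genes tested, 10 were lower in thymic cells and none was higher, while none of 10 heat shock genes was called by edgeR. In the same test 15.8% of 14690 genes were called, 5.96% as higher and 9.85% as lower. The lack of heat shock calls depended on the setting. DESeq2 called 12 ER and 2 heat shock genes lower (24.4% of all genes called). Without a count filter, edgeR called 11 ER genes and 1 heat shock gene lower (9.92%). Without active WT replicate 1, it called 12 ER genes and 1 heat shock gene lower and 1 ER gene higher (19.2%). Sdf2l1 was at 21.9, 14.6 and 23.2 CPM in thymic and 106, 90.8 and 84.4 CPM in active libraries (log2 -2.33 ± 0.23, edgeR adjusted p = 0.000446). Asns had 0 counts in all 3 thymic WT libraries and 2.81, 10.1 and 4.58 CPM in active ones, so it passed the count filter through the active libraries alone. Its active mean of 5.84 CPM was 54.9-fold a floor of 3 counts per library (0.106 CPM at most). That floor was set by choice and the active libraries varied, so the ratio is only a rough guide. Xbp1 was at 225, 215 and 273 CPM against 368, 332 and 395 CPM (log2 -0.71 ± 0.13), and Hspa5 at 607, 672 and 598 CPM against 786, 900 and 1101 CPM (log2 -0.66 ± 0.13). Pdia4, Hsp90b1, Manf, Calr, Pdia3 and Pdia6 were lower, with log2 fold changes of -0.81 to -0.54.

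These 10 genes were also among the 16 called higher in active than in resting minusFoxp3 cells, which came from other mice and were counted with other settings. Both contrasts set active cells against others. The share of all genes called in both was not counted, so the overlap is not a result about these genes. Atf6 was at 11.4, 19.6 and 6.17 CPM in thymic and 24.4, 34.8 and 38.1 CPM in active WT libraries, without overlap, and just missed the threshold (log2 -1.48 ± 0.43, edgeR adjusted p = 0.0557). Among heat shock genes Hspa1b had the lowest p (log2 -4.15 ± 1.27, edgeR adjusted p = 0.064), from 0 to 0.827 CPM in thymic and 3.93 to 12.5 CPM in active libraries. Proliferation genes differed as well, with 15 of 20 lower in thymic cells and sums of 247 to 364 CPM against 1004 to 1420 CPM, and the list of B and plasma cell genes summed to 180 to 197 CPM against 1130 to 1533 CPM. Their part in the ER result was not tested. Thymic and peripheral cells also differ in organ and in gate, which cannot be told apart here from activation.

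**Figure D5:**
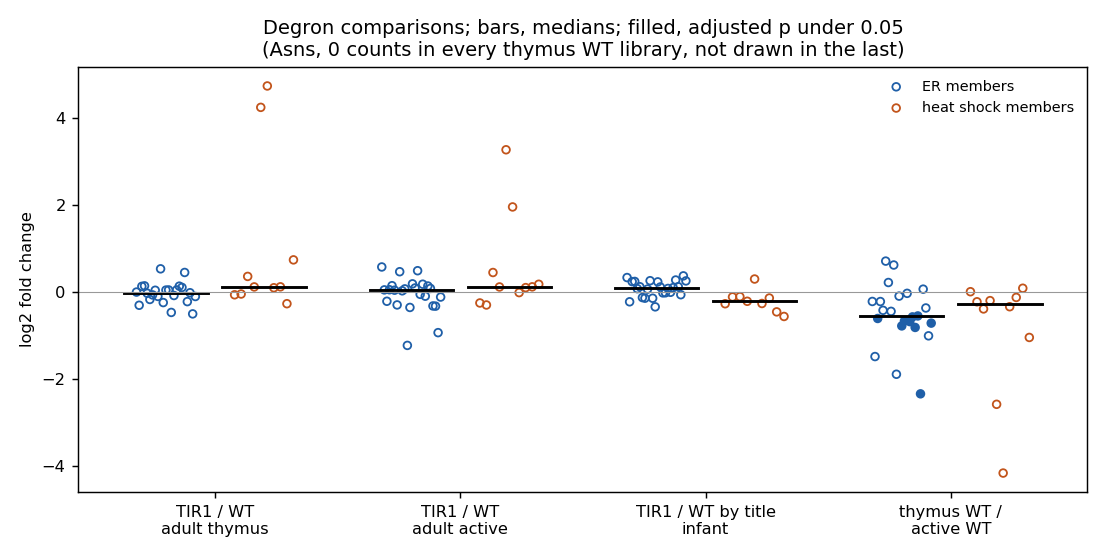
Log2 fold change (y axis) of each ER gene (blue) and heat shock gene (orange) between TIR1 and WT cells of adult thymus, adult active Treg cells and infants, and between thymic and active WT cells. Black bars are medians and filled circles have an edgeR adjusted p under 0.05, which 9 of the drawn ER genes reach in the last comparison and no gene in the first 3; Asns is left out of the last.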

How the data were processed

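RNA of sorted cells was made into libraries with SMART-Seq v4 and sequenced as paired ends. The authors deposited raw counts per gene, made with featureCounts (version 2.0.3) over GENCODE vM30 on GRCm39 without strand, and with a mapping quality of at least 30 in the 20 degron libraries but no such limit in the other 44. The study's methods name STAR as aligner and the submitters' processing notes Bowtie2. The genes and lists were chosen with earlier results of these data known.

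Genes with a mean count of at least 10 were tested with edgeR (version 4.0.16, R 4.3.3): TMM scaling, robust quasi-likelihood fit with 1 mean per group, Benjamini-Hochberg adjustment over all genes tested and a threshold of 0.05. Resting, active, thymic, adult active and infant libraries were fitted apart, and contrasts across states or tissues in joint fits. Fold changes are log2, errors are SE. Small sets of libraries often fail to overlap without a true difference. The share of all genes without overlap was counted only between active and resting minusFoxp3 libraries. Counting error at these depths is small beside the spread between libraries, but not for genes with few or no counts, such as Asns and Hspa1b in thymic WT libraries. Genes named with values are all members called, otherwise the ER and the heat shock gene of lowest p in a comparison, and fixed chaperones and factors where levels are described (Hspa5, Hsp90b1, Xbp1, Ddit3, Hspa1a, Hspa1b, Hsp90aa1, Hsp90ab1 and Dnajb1). Other members named with values, such as Herpud1 in infants, Dnajb9, Hspa8 and Pdia4 in the interaction, were added after their values were seen. Alternatives were RLE scaling, no count filter, DESeq2 (version 1.42.0), a replicate block, leaving out each library, fitting the compared libraries only, and grouping by deposited sample. The scripts were tested on simulated counts. Replicate numbers were checked for pairing by the correlation of deviations from group means, and, of comparisons with 3 or more pairs, every correlation was above 0.1 in the treated against untreated resting comparison (0.118 to 0.299) and the day 28 interaction (0.121 to 0.322), where the block changed no count of members. Comparisons of 2 groups with 2 libraries each hold 1 such correlation (-0.192 to 0.304) and were not taken as paired.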

Additional observations from a re-analysis of the deposited data

Results flagged for a closer look

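Atf6 differed in its state effect between Foxp3GFP and untreated minusFoxp3 cells by -2.17 log2 units in a test of the difference itself. It was 1 call among 34 members, near the share of all genes called (2.43%). In the same test 4 of 20 proliferation genes were called lower (median -2.35), and of 13 B and plasma cell genes 2 were called higher and 1 lower. The part of these lists in the Atf6 result was not tested. Among 66 sets of 4 infant values, 2 had a library far from the other 3, where chance gives about 1 in 20. Syvn1 was at 59.5 CPM in titled WT replicate 1 against 65.6 to 66.2 CPM in the others, and Hsp90aa1 at 272 CPM in titled WT replicate 3 against 198 to 209 CPM.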

How the results depend on the processing

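With RLE scaling every count of members called was within 1.5 times the count reported. Without a count filter, members called went from 0 to 4, 2, 3 and 2 for restored Foxp3 in resting cells on days 3, 7, 14 and 28, and to 2 and 3 in active cells on days 3 and 14. They went to 4 for Foxp3GFP against minusFoxp3 and 1 against day 28 plusFoxp3 in resting cells, and to 7 (from 2) and 2 in active cells. Active against resting Foxp3GFP cells then gave 3 (from 1) and the Foxp3GFP interaction 4 (from 1). DESeq2 gave 1 in degron thymus, 5 in infants, 1 on day 14 in resting cells, 1 and 4 for Foxp3GFP against minusFoxp3 in resting and active cells, and 3 for active against resting Foxp3GFP cells. Fitting the compared libraries only gave 1 for active Foxp3GFP against minusFoxp3. The cause was not tested in these cases. With the replicate numbers as a block, active against resting Foxp3GFP cells gave 2 (from 1), minusFoxp3 cells 24 (from 20) and thymic against active WT cells 7 (from 10), and no other count changed. The block fits 1 effect per replicate number over all groups of a fit, so it does not pair libraries by day and genotype. Same-numbered libraries correlated above 0.1 in 78 of 90 pairs of groups and numbers in the minusFoxp3 comparison, and no source ties them to a mouse. The share of all genes called changed with these settings too: it was 0.667% to 6.01% in the comparisons named without a count filter (1.35% for resting day 3), 1.1% to 12.6% with DESeq2, 7.29% with the compared libraries only, and 4.54%, 40.5% and 11.8% with the block.

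Leaving out 1 library gave 0 to 4 for resting day 0 (4 without plusFoxp3 replicate 2, with 10.2% of all genes called), 0 to 2 for active day 7 (2 without minusFoxp3 replicate 2, 11.7%), 0 to 6 for infants, 6 to 14 for thymic against active WT cells (6 without thymic WT replicate 3, 11.4%, and 14 without active WT replicate 1, 19.2%), 18 to 23 for active against resting minusFoxp3 cells, and 0 to 1 for active against resting Foxp3GFP cells. It gave 0 to 3 for active Foxp3GFP against minusFoxp3, 0 to 1 against day 28 plusFoxp3 (Ern1, without plusFoxp3 replicate 2, 2.48%), 1 to 1 for the Foxp3GFP interaction, and 0 in all others. Grouping the adult degron tables by deposited sample gave 12 (23.4% of all genes) for thymic against active cells and turned both adult TIR1 contrasts around. For genes called in the main fits, 628 values were obtained under these alternatives, of which 584 kept direction and side of the threshold and 44 lost the call. Calls gained by other genes under an alternative are not part of this tally. No called gene changed sign; with 2 or 3 libraries a group, the spread of Hspa1a and Hspa1b leaves differences of several log2 units undetectable.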
